A study of Homo sapiens with 6 samples.

Results

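MELK, a serine/threonine kinase, belongs to the AMPK-related branch of the human kinases, and this group of 10 genes holds MELK, the branch's master upstream kinase STK11 (LKB1), and 8 further branch members. They were taken by gene symbol from a table of 61852 genes: MELK, STK11, PRKAA1, MARK2, MARK3, MARK4, SIK1, SIK2, SIK3 and NUAK2. The rule uses gene names and no threshold on a measured value, and the group was drawn up with earlier results of these data known. The libraries were 3 of MEG-01 cells transduced with sh2-MELK, a short hairpin RNA against MELK, and 3 of MEG-01 cells transduced with the control vector pLKO.1. MEG-01 is an established human megakaryoblastic leukaemia line, and the labels give its cell type as megakaryoblast. All 6 libraries were labelled batch F5 and were made from poly(A)-selected RNA. Only 1 hairpin was used here, and the submitters call the replicates independent and biological without saying whether each was transduced separately.

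LKB1 is a tumour suppressor kinase that switches on AMPK and most of its relatives by phosphorylating a threonine in their activation loop. MELK differs from them in that it can phosphorylate its own activation loop, and it is best known for being abundant in dividing cells. AMPK senses falling cellular energy, the MARK kinases loosen microtubules by phosphorylating microtubule-associated proteins, and the SIK kinases hold CREB coactivators and class IIa histone deacetylases in the cytoplasm. This control acts through phosphorylation, so a transcript level says how much template each kinase has and not how active it is.

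Low deposited counts did not behave as bare numbers of reads. In 35797 genes, which is 57.9% of the table, all 6 values were 0, 1, 2, 10 or 100, as if a number drawn from those 5 had been added to each read count. The added number averages 22.6 with a SD of 38.9, so it weighs most on genes with few reads and 100 is still a visible part of the counts of SIK2, SIK3 and MARK3. Each gene is therefore given with its deposited counts, with the edgeR result on those counts, and, where it matters, with reads estimated by a model that allows for the added number. Library totals ran from 18945176 to 21711313 counts. Over the 5038 genes whose counts averaged 500 or more, correlations of log2 levels between libraries of a group were 0.9944 to 0.9963. Between libraries of different groups they were 0.8912 to 0.9076 over the same genes.

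MELK (ENSG00000165304, GRCh38 chromosome 9, 36572862 to 36677683, plus strand) was the targeted gene. Its promoter is shown because it is the starting point of the transcript that the hairpin targets. RefSeq places the window of 250 bases before to 50 after the start at chr9:36572645-36572944 on the plus strand of GRCh38.p14, and capitals mark GGGCGG, the letters of a GC box, on either strand.

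MELK promoter: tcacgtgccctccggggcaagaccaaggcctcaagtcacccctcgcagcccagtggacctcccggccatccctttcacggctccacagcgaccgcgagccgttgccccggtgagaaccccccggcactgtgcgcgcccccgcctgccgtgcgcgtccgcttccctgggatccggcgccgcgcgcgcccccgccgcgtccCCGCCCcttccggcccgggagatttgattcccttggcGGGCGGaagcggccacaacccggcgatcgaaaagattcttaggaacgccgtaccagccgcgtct

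MELK had counts of 16, 124 and 26 in the sh2-MELK libraries, against 219, 206 and 238 in the pLKO.1 libraries. Every sh2-MELK library was below every pLKO.1 library, and replicate 2 stood well above the other sh2-MELK libraries. MELK averaged 2.78 ± 2.94 CPM (counts scaled to library size) in sh2-MELK and 11.01 ± 0.521 CPM in pLKO.1 (SD, n = 3 each). In edgeR the log2 fold change was -1.98 ± 0.69 (SE), with a Benjamini-Hochberg adjusted p of 0.104, so MELK did not pass the threshold of 0.05 on the counts as deposited. Without sh2-MELK replicate 2 the edgeR log2 fold change was -3.32 with an adjusted p of 0.00271. Under the added-number model the 124 of replicate 2 was read as 24 reads plus 100. The model put MELK at 20.48 reads (95% interval 14.74 to 27.05) in sh2-MELK and 215.0 reads (95% interval 194.4 to 237.5) in pLKO.1. Its log2 fold change was -3.39 (95% interval -3.89 to -2.96). The hairpin acts on messenger RNA made from this promoter, and promoter activity itself was not measured.

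Across the 10 kinases 1 gene, MARK4, passed the edgeR test and fell, and 0 rose. Over all 28303 genes tested 16.5% passed, 8.12% higher and 8.43% lower in sh2-MELK. The genes tested include 8895 that hold only the values 0, 1, 2, 10 and 100. The 5038 genes whose counts averaged 500 or more are called well-counted here, and 68.0% of them passed, 32.5% higher and 35.5% lower. The kinases had 6 genes in that range, and 1 of those 6 passed. In an edgeR fit to the well-counted genes alone, 1 of the 6 rose (MARK3) and 2 fell (MARK4 and SIK3), where 77.0% of genes passed, 38.1% higher and 38.9% lower. The added-number model passed 5 of the 10, PRKAA1 and MARK3 higher and MELK, MARK4 and SIK3 lower, where 31.7% of all genes passed, 15.3% higher and 16.4% lower. The 10 kinases had a median log2 fold change of -0.10 in edgeR, and all genes tested one of 0.02. Among the 6 well-counted kinases the largest absolute log2 fold change was 0.42 (SIK3), while 35.1% of all well-counted genes were past 0.5. The CPM values of the groups did not overlap in 6 of the 10 kinases, 2 higher and 4 lower in sh2-MELK, against 30.7% of all genes tested (15.9% higher, 14.8% lower). In the well-counted range 4 of 6 did not overlap, against 79.2% of such genes (38.1% higher, 41.0% lower). The exact permutation test over 3 against 3 libraries cannot give a p below 0.1 for a single gene.

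**Figure D1:**
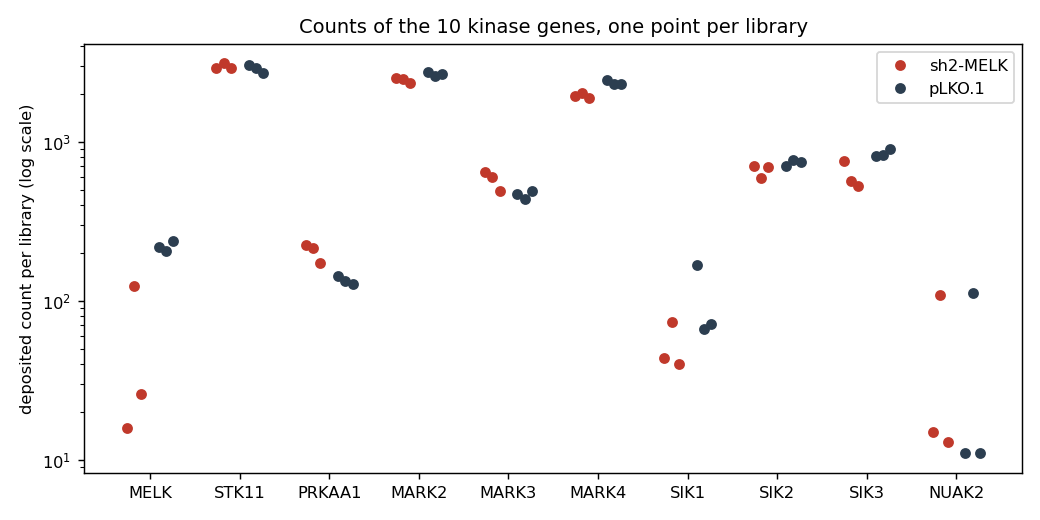
Deposited count of each of the 10 kinase genes in each library (log scale), with the 3 sh2-MELK libraries left of the 3 pLKO.1 libraries. MELK is below its pLKO.1 values in all 3 sh2-MELK libraries, with replicate 2 at 124, while STK11, MARK2 and MARK4 lie near the top of the axis in both groups.

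STK11 (ENSG00000118046, chromosome 19, 1177558 to 1228435, plus strand) encodes LKB1. Its counts were 2888, 3097 and 2911 in sh2-MELK, against 3046, 2922 and 2687 in pLKO.1, and the groups overlapped. STK11 averaged 151.6 ± 4.35 CPM in sh2-MELK and 144.0 ± 11.2 CPM in pLKO.1 (SD, n = 3 each). The edgeR log2 fold change of 0.07 ± 0.06 (SE) did not pass, with an adjusted p of 0.520, and the model's 95% interval was -0.06 to 0.21. STK11 has a GC content of 65.8%, the highest of the 10. Across 5031 well-counted genes fold changes ran with GC content (Spearman rho -0.386, a description across genes), with median log2 fold changes of 0.36 below 45% GC and -0.20 from 55% GC upward. After a correction that took out the dependence on GC content and length in every library, STK11 had a log2 fold change of 0.40 ± 0.04 (SE) with an edgeR adjusted p of 1.19e-07. Whether the trend is technical or biological was not tested. STK11 shares 149 exonic bases with CBARP on the opposite strand, 1.72% of its exons, and the sources used here do not say whether the counting used strand.

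PRKAA1 (ENSG00000132356, chromosome 5, 40759379 to 40798374, minus strand) encodes the AMPK catalytic subunit alpha 1. It had counts of 224, 214 and 172 in sh2-MELK, against 143, 133 and 127 in pLKO.1. All sh2-MELK libraries were above all pLKO.1 libraries. PRKAA1 averaged 10.37 ± 1.15 CPM in sh2-MELK and 6.70 ± 0.440 CPM in pLKO.1 (SD, n = 3 each). The edgeR log2 fold change of 0.63 ± 0.21 (SE) missed the threshold, with an adjusted p of 0.0842. The added-number model gave 202.4 reads (95% interval 182.4 to 223.8) in sh2-MELK and 129.5 reads (95% interval 114.6 to 145.8) in pLKO.1. Its log2 fold change was 0.64 (95% interval 0.42 to 0.87). PRKAA1 has a GC content of 35.3%, the lowest of the 10, and is below the count level at which the GC trend was removed.

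The MARK kinases, which detach tau and related proteins from microtubules, had fold changes of both signs. MARK4 (ENSG00000007047, chromosome 19, 45079288 to 45305283, plus strand) had counts of 1943, 2016 and 1883 in sh2-MELK, against 2452, 2314 and 2305 in pLKO.1, with no overlap. It averaged 99.5 ± 0.823 CPM in sh2-MELK and 117.6 ± 4.42 CPM in pLKO.1 (SD, n = 3 each). MARK4 fell, with an edgeR log2 fold change of -0.24 ± 0.04 (SE) and an adjusted p of 0.00282. With the GC and length trend removed the log2 fold change of MARK4 (GC content 59.2%) was -0.05 ± 0.04 (SE) and did not pass. MARK4 shares 90 exonic bases with GEMIN7 on the same strand, 1.35% of its exons.

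MARK2 (ENSG00000072518, chromosome 11, 63838928 to 63911019, plus strand) had counts of 2493, 2478 and 2351 in sh2-MELK, against 2724, 2567 and 2641 in pLKO.1. The groups did not overlap, and the difference was small, with an edgeR log2 fold change of -0.08 ± 0.03 (SE) and an adjusted p of 0.196. With the GC and length trend removed the direction of MARK2 (GC content 60.1%) turned round, to 0.13 ± 0.04 (SE), with an edgeR adjusted p of 0.0056. MARK3 (ENSG00000075413, chromosome 14, 103385392 to 103503831, plus strand) had counts of 640, 599 and 487 in sh2-MELK, against 466, 437 and 493 in pLKO.1. These counts overlapped, and after scaling to library size the CPM values did not. The edgeR log2 fold change of MARK3 was 0.34 ± 0.10 (SE) with an adjusted p of 0.0516. In the edgeR fit to the well-counted genes alone it was 0.36 ± 0.11 (SE) with an adjusted p of 0.00847. Without sh2-MELK replicate 3 its edgeR adjusted p was 0.019, and with any other single library left out it was 0.113 to 0.17. The added-number model, which read the 640 of replicate 1 as 540 reads plus 100, gave 0.27 (95% interval 0.05 to 0.48). With the GC and length trend removed the log2 fold change of MARK3 (GC content 43.1%) was 0.03 ± 0.11 (SE).

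The 3 salt-inducible kinases had lower mean levels in sh2-MELK, and none of them passed the edgeR test. SIK3 (ENSG00000160584, chromosome 11, 116843402 to 117098437, minus strand) had counts of 751, 568 and 524 in sh2-MELK, against 807, 828 and 895 in pLKO.1. All sh2-MELK libraries were below all pLKO.1 libraries, and replicate 1 came nearest to them. SIK3 averaged 31.4 ± 5.84 CPM in sh2-MELK and 42.1 ± 2.22 CPM in pLKO.1 (SD, n = 3 each). The edgeR log2 fold change of -0.42 ± 0.12 (SE) missed the threshold, with an adjusted p of 0.0549. Without sh2-MELK replicate 1 it was -0.59, with an adjusted p of 0.00346. With any other single library left out the edgeR adjusted p of SIK3 was 0.138 to 0.217. The model read the 751 of replicate 1 as 651 reads plus 100. It gave SIK3 586.1 reads (95% interval 542.4 to 633.5) in sh2-MELK and 819.9 reads (95% interval 741.2 to 888.4) in pLKO.1, a log2 fold change of -0.48 (95% interval -0.65 to -0.30). With the GC and length trend removed SIK3 (GC content 50.4%) passed, at -0.49 ± 0.10 (SE) and an edgeR adjusted p of 0.000308. In that fit 4 of the 6 well-counted kinases passed, STK11 and MARK2 higher and SIK2 and SIK3 lower, where 76.2% of genes passed, 34.9% higher and 41.4% lower.

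SIK2 (ENSG00000170145, chromosome 11, 111602391 to 111730853, plus strand) had counts of 701, 590 and 688 in sh2-MELK, against 701, 764 and 750 in pLKO.1, and the groups overlapped. Its edgeR log2 fold change was -0.13 ± 0.10 (SE) with an adjusted p of 0.523, and the model's 95% interval was -0.40 to 0.06. With the GC and length trend removed it was -0.24 ± 0.10 (SE), with an edgeR adjusted p of 0.033. SIK2 shares 150 exonic bases with PPP2R1B on the opposite strand, 1.53% of its exons.

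SIK1 (ENSG00000142178, chromosome 21, 43414483 to 43427189, minus strand) had counts of 44, 74 and 40 in sh2-MELK, against 167, 67 and 71 in pLKO.1. Only pLKO.1 replicate 1 stood apart, and the model read its 167 as 67 reads plus 100. The edgeR log2 fold change was -0.91 ± 0.72 (SE) with an adjusted p of 0.521. The model gave 49.69 reads (95% interval 41.16 to 59.46) in sh2-MELK and 65.52 reads (95% interval 55.4 to 76.57) in pLKO.1, with a log2 fold change of -0.40 (95% interval -0.75 to -0.05) that missed its adjusted threshold. SIK1 has a near-identical copy, SIK1B (ENSG00000275993, chromosome 21, 6111134 to 6123739, plus strand), so reads could fall on either gene. The longest GENCODE transcripts, of 4805 bases for SIK1 and 4705 for SIK1B, aligned with 4698 identical bases and 7 differing ones. This is an identity of 99.85% of aligned bases, and a further 100 bases lay in gaps. Of the 100-base windows of SIK1, 86.8% were found whole in SIK1B. A stretch of both transcripts is shown because it holds 2 of those 7 differing bases, in capitals.

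SIK1: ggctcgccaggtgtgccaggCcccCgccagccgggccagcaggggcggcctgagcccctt

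SIK1B: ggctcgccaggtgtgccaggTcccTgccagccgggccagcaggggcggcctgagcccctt

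SIK1B had counts of 157, 58 and 39 in sh2-MELK, against 51, 74 and 71 in pLKO.1. With the copies summed, the counts were 201, 132 and 79 in sh2-MELK, against 218, 141 and 142 in pLKO.1, and the groups overlapped. By the model this sum holds an added 100 in replicate 1 of each group. The edgeR log2 fold change of the sum was -0.25 ± 0.37 (SE) with an adjusted p of 0.862. The model put both copies lower in sh2-MELK, and neither passed its adjusted threshold. The direction of SIK1 alone and its size are uncertain.

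NUAK2 (ENSG00000163545, chromosome 1, 205302059 to 205321791, minus strand), an LKB1 substrate linked to cell adhesion and actomyosin contraction, had counts of 15, 109 and 13 in sh2-MELK, against 11, 112 and 11 in pLKO.1. Each group held 1 value above 100, which the model read as 9 and 12 reads plus 100. It gave NUAK2 11.47 reads (95% interval 5.02 to 16.16) in sh2-MELK and 10.54 reads (95% interval 7.18 to 14.8) in pLKO.1. The 95% interval of its log2 fold change was -1.13 to 0.87, and a difference within it was not detectable from these counts.

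**Figure D2:**
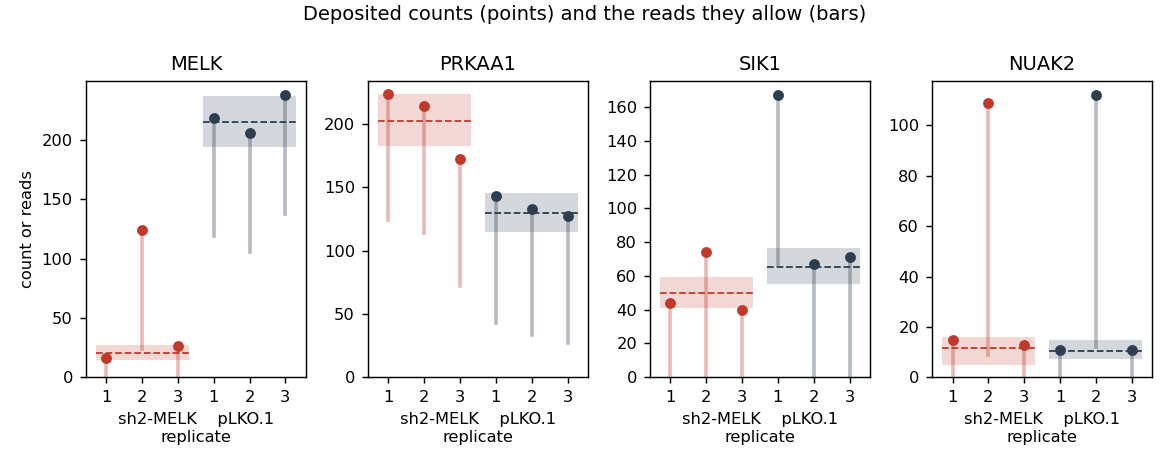
Deposited count (point) per library of the low-count kinases MELK, PRKAA1, SIK1 and NUAK2, with sh2-MELK left of pLKO.1; each vertical bar runs down to the fewest reads the count allows, and the dashed line and band give the modelled reads of the group with the 95% interval. Single deposited values near 100 above the rest, such as 124 for MELK in sh2-MELK replicate 2 and 112 for NUAK2 in a pLKO.1 library, stand apart from the modelled reads.

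**Figure D3:**
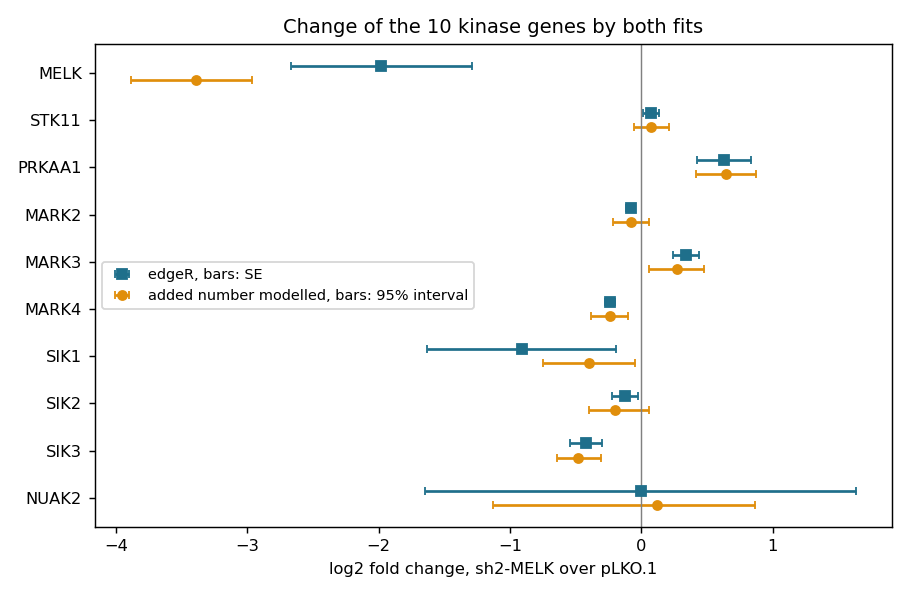
Log2 fold change, sh2-MELK over pLKO.1, of the 10 kinases from edgeR (with SE) and from the added-number model (with 95% interval). The estimates differ most for MELK, at -1.98 in edgeR and -3.39 in the model, and lie close together for the well-counted STK11, MARK2 and MARK4.

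Per length of exon the kinases lay in separate ranges of level in these megakaryoblasts. Length was that of all annotated exons of a gene joined together, 8639 bases for STK11, 6154 for MARK2 and 6668 for MARK4. Levels depend on this choice of length, which the 95% intervals do not cover. On the scale of modelled reads per kilobase of exon, scaled to library size as RPKM, MARK2 was at 20.1 in sh2-MELK and 21.25 in pLKO.1. STK11 was at 17.41 in sh2-MELK and 16.53 in pLKO.1, and MARK4 at 14.77 in sh2-MELK and 17.47 in pLKO.1. The 95% intervals of STK11 and MARK4 overlapped in pLKO.1 (15.48 to 17.66 and 16.35 to 18.67) and did not order them there. SIK3 (2.71 in sh2-MELK, 3.79 in pLKO.1), SIK2 (3.19 in sh2-MELK, 3.67 in pLKO.1) and MARK3 (3.11 in sh2-MELK, 2.59 in pLKO.1) lay several-fold lower. In pLKO.1 the level of MELK, 3.52 (95% interval 3.18 to 3.89), could not be told from those of SIK3 and SIK2. In sh2-MELK it was 0.335 (95% interval 0.241 to 0.443), which placed it below PRKAA1 at 1.56. In that group its interval overlapped that of SIK1 (0.476, 95% interval 0.395 to 0.570). PRKAA1 in pLKO.1 was at 0.996 and SIK1 at 0.628, and NUAK2 was lowest with 0.168 in sh2-MELK and 0.155 in pLKO.1.

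**Figure D4:**
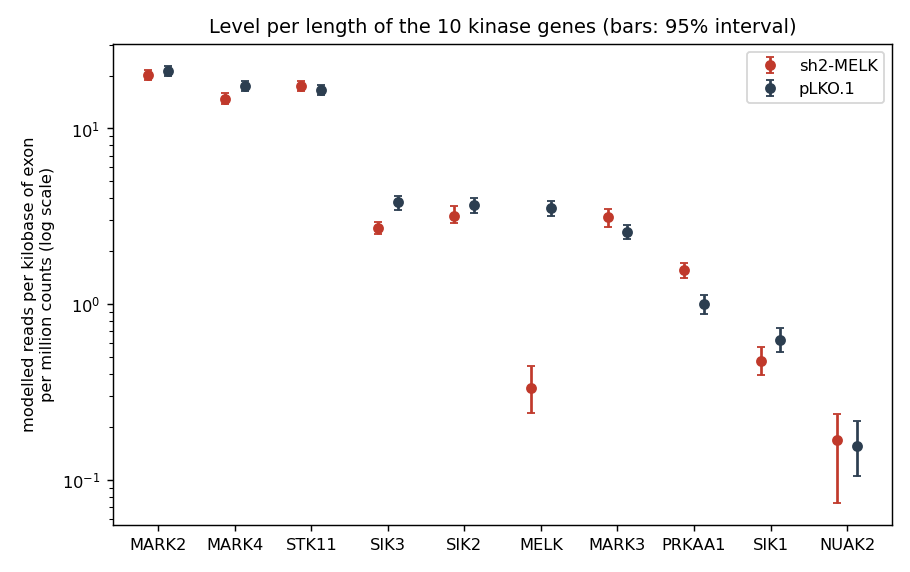
Modelled level per length (RPKM, log scale) of each kinase in sh2-MELK and pLKO.1, with 95% intervals from the added-number model. MARK2, MARK4 and STK11 lie highest, NUAK2 lies lowest, and MELK is at 0.335 in sh2-MELK against 3.52 in pLKO.1.

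The promoters of the 10 kinases all had an entry in RefSeq. The cyclic AMP response element core TGACGT, searched on both strands, was in the 300-base windows of 4 of the 10 kinases, against 7.98% of 35116 promoters of the same length. It was found in all SIK genes and in MARK4, and those windows are shown because CREB is the factor whose coactivators the SIK kinases restrain. Capitals mark TGACGT on either strand. The full palindrome TGACGTCA was in 0 of the 10 and in 1.85% of all promoters. The cell-cycle element TTTGAA was in 0 of the 10, against 15.2% of all promoters, and GGGCGG was in 10 of 10, against 45.0%. A kinase was counted if any of its windows matched, while the shares are over single windows. MARK2 had a further window, which lacked GGGCGG. These matches describe letters only, and no factor binding was measured.

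The windows are, on GRCh38.p14, chr21:43427082-43427381 on the minus strand for SIK1, chr11:111602199-111602498 on the plus strand for SIK2, chr11:117098379-117098678 on the minus strand for SIK3, and chr19:45251021-45251320 on the plus strand for MARK4.

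SIK1 promoter: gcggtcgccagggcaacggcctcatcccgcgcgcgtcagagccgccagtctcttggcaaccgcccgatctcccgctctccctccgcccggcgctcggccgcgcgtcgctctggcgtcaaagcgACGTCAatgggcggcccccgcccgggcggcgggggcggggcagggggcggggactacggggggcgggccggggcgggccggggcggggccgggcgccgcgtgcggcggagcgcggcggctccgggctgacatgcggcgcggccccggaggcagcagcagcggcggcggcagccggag

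SIK2 promoter: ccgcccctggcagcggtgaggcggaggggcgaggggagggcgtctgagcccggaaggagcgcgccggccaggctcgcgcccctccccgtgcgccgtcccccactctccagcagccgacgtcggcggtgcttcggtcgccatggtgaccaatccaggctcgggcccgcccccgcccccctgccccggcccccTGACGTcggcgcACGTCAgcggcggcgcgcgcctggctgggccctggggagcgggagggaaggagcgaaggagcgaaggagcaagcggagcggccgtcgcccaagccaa

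SIK3 promoter: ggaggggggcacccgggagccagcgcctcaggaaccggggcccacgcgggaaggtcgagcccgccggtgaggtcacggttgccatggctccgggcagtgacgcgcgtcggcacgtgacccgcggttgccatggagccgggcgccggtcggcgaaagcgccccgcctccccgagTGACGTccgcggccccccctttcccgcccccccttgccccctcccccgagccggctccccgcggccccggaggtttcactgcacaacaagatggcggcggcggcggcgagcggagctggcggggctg

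MARK4 promoter: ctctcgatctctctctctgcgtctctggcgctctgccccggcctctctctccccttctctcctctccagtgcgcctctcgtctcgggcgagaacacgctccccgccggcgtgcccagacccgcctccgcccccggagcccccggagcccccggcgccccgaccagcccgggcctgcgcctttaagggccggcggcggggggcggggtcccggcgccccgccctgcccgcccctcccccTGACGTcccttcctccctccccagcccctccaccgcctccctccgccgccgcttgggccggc

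The 4 genes with this core had edgeR log2 fold changes of -0.91 ± 0.72 (SIK1), -0.13 ± 0.10 (SIK2), -0.42 ± 0.12 (SIK3) and -0.24 ± 0.04 (MARK4) (SE), and only MARK4 among them passed the test.

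By the pattern over the 6 libraries, the genes most like MELK among 5032 well-counted genes were UNC5B, EMID1 and RAB37. Likeness was the root-mean-square distance between mean-centred log2 CPM values, which was 0.474 for UNC5B, 0.495 for EMID1 and 0.551 for RAB37. UNC5B, a netrin receptor, had counts of 99, 243 and 136 in sh2-MELK, against 1104, 1038 and 1088 in pLKO.1. EMID1 had counts of 153, 313 and 196 in sh2-MELK, against 1387, 1291 and 1470 in pLKO.1. RAB37, a small GTPase of secretory vesicles, had counts of 263, 413 and 261 in sh2-MELK, against 1945, 1708 and 1942 in pLKO.1. Likeness was computed on the deposited counts, in which the MELK value of sh2-MELK replicate 2 holds an added 100 by the model. A high replicate 2 in these genes follows from how they were chosen, and the ranking is one of deposited values and not of reads. For STK11, the kinase with the highest mean count, the closest were NAA60, TMED4 and NF2, at distances of 0.0369, 0.0376 and 0.0427.

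Among the remaining AMPK-related kinases 0 of 8 tested genes passed in edgeR in either direction, against 16.5% of all genes tested, and none was well-counted. SNRK passed in DESeq2 and in the added-number model and rose there. SNRK, a kinase of the same branch activated by LKB1, had counts of 323, 277 and 198 in sh2-MELK, against 135, 213 and 109 in pLKO.1. Its edgeR log2 fold change was 0.82 ± 0.30 (SE) with an adjusted p of 0.126. With a library left out that adjusted p ran from 0.0316 to 0.353, below 0.05 only without pLKO.1 replicate 2. The model gave SNRK 232.6 reads (95% interval 183.5 to 257.9) in sh2-MELK and 115.4 reads (95% interval 101.7 to 130.3) in pLKO.1, a log2 fold change of 1.01 (95% interval 0.60 to 1.24). BRSK1, a kinase of neuronal polarity, had -0.34 ± 0.15 (SE), and PRKAA2, the alternative AMPK catalytic subunit, had values that the added number nearly accounts for, 100, 101 and 5 in sh2-MELK against 1, 100 and 1 in pLKO.1.

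The regulatory subunits of AMPK, which bind the catalytic subunit, held 2 of 4 tested genes that rose and 0 that fell. Of all genes tested 8.12% rose. PRKAB1, at 0.31 with the GC and length trend removed, was the only well-counted gene of the list, and 32.5% of well-counted genes rose. PRKAB1, the beta 1 subunit, had counts of 2323, 2558 and 2286 in sh2-MELK, against 1820, 1631 and 1819 in pLKO.1, and rose by an edgeR log2 fold change of 0.48 ± 0.04 (SE, adjusted p 8.85e-05). PRKAG2, the gamma 2 subunit, rose by 0.63 ± 0.15 (SE, edgeR adjusted p 0.0231), and its adjusted p ran from 0.015 to 0.0965 as each library was left out, below 0.05 only without sh2-MELK replicate 3. PRKAB2 was at -0.19 ± 0.30 (SE) and did not pass, and PRKAG1 had at most a few reads beyond the added number.

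Among LKB1's partners and the other upstream kinases, 1 of 7 tested genes rose and 2 fell, where 8.12% and 8.43% of all genes did. Only CAMKK2 was well-counted, a range in which 32.5% of genes rose and 35.5% fell. CAB39 (MO25), the scaffold that holds LKB1 active, had counts of 438, 386 and 408 in sh2-MELK, against 578, 516 and 601 in pLKO.1. It fell by 0.42 on the log2 scale (SE 0.09, edgeR adjusted p 0.0112). CAMKK2, the calcium-dependent AMPK kinase, had -0.18 ± 0.04 (SE) and MAP3K7 (TAK1) had 0.56 ± 0.14 (SE), both past the edgeR threshold. STRADB, a pseudokinase partner of LKB1, had -0.03 ± 0.13 (SE) and did not pass. The call was lost on leaving out either pLKO.1 replicate 1 or 3 for CAB39, with an edgeR adjusted p of at most 0.0631. It was lost without sh2-MELK replicate 1 or 2 or pLKO.1 replicate 2 or 3 for CAMKK2 (at most 0.0711), and for MAP3K7 without any single library other than sh2-MELK replicate 1 (at most 0.113).

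The 14-3-3 proteins, which bind the sites that these kinases phosphorylate, held 5 of 6 tested genes that rose and 0 that fell, against 8.12% of all genes that rose, and 32.5% of the well-counted genes. The median of their log2 fold changes was 0.50, and that of all genes 0.02. YWHAZ (14-3-3 zeta) had counts of 9119, 9732 and 9291 in sh2-MELK, against 4129, 4557 and 4575 in pLKO.1. It averaged 479.6 ± 15.2 CPM in sh2-MELK and 220.7 ± 17.3 CPM in pLKO.1 (SD, n = 3 each), and rose by an edgeR log2 fold change of 1.12 ± 0.06 (SE, adjusted p 3.77e-06). YWHAG rose by 0.54 ± 0.05 (SE) and YWHAE by 0.45 ± 0.07 (SE), while YWHAQ had -0.07 ± 0.07 (SE) and did not pass. With the GC and length trend removed YWHAZ was at 0.74, YWHAG at 0.29, YWHAE at 0.16 and YWHAQ at -0.43, all past the edgeR threshold of that fit. YWHAB lost its call there, at -0.01 against 0.30 before. In that fit 4 of the 6 were higher and 1 lower, where 34.9% and 41.4% of all genes fitted were. The median log2 fold change of the 6 was 0.23, and that of all genes in the fit -0.04.

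The SIK substrates held 2 of 7 tested genes that rose and 3 that fell, with a median log2 fold change of -0.02. Of these 7 genes 6 were well-counted, a range in which 68.0% of all genes passed, so the count is near the background. HDAC7, a class IIa histone deacetylase that is kept out of the nucleus by phosphorylation, had counts of 2636, 2562 and 2273 in sh2-MELK, against 6513, 6214 and 6470 in pLKO.1. It averaged 127.2 ± 6.66 CPM in sh2-MELK and 319.1 ± 3.45 CPM in pLKO.1 (SD, n = 3 each), and its edgeR log2 fold change was -1.33 ± 0.04 (SE, adjusted p 4.54e-07). HDAC5 of the same class had -0.02 ± 0.03 (SE) and did not pass, and with the GC and length trend removed it was at 0.23 and passed. The CREB coactivators CRTC2 and CRTC3 rose by 0.34 ± 0.08 and 0.26 ± 0.04 (SE), and for CRTC2 the edgeR adjusted p ran up to 0.114 with a library left out, above 0.05 without sh2-MELK replicate 1 or 3 or pLKO.1 replicate 2 or 3. Of the CREB and CRTC targets 3 of 10 tested rose and 0 fell, where 8.12% of all genes and 32.5% of well-counted genes rose. This list of targets holds SIK1 itself. PER1, a clock gene and the only well-counted one of these, rose by 0.45 ± 0.05 (SE), or 0.72 with the GC and length trend removed, and the immediate early gene NR4A1 rose by 1.01 ± 0.27 (SE). The edgeR adjusted p of NR4A1 went up to 0.163 with a library left out, above 0.05 without sh2-MELK replicate 1 or 2 or pLKO.1 replicate 1 or 2. FOS had -0.02 ± 0.12 (SE) and NR4A2 had 0.28 ± 0.15 (SE), and neither passed.

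AMPK substrates held 5 of 14 tested genes that rose and 5 that fell. Of these 14 genes 11 were well-counted, a range in which 32.5% of all genes rose and 35.5% fell, so the count is near the background. SREBF1, the transcription factor of lipid synthesis that AMPK inhibits, had counts of 2052, 2103 and 2005 in sh2-MELK, against 4504, 4018 and 4191 in pLKO.1, and fell by 1.01 on the log2 scale (SE 0.04, edgeR adjusted p 9.12e-07). TXNIP, a brake on glucose uptake, fell by 0.92 (SE 0.05), and RPTOR, the mTORC1 scaffold, fell by 0.44 (SE 0.03), or by 0.20 with the GC and length trend removed. ACACA, the acetyl-CoA carboxylase of fatty acid synthesis, rose by 0.51 ± 0.05 (SE). Of the 8 MARK and NUAK substrates, 2 of them well-counted, 0 rose and 1 fell in edgeR, against 8.12% and 8.43% of all genes. In DESeq2 1 rose and 3 fell, where 3310 of the 28303 genes fitted rose and 3218 fell. In the added-number model 1 rose and 4 fell, where 15.3% and 16.4% of all genes did. KSR1, a scaffold of the ERK pathway, fell by 0.17 (SE 0.04), with an edgeR adjusted p of 0.0186 that went up to 0.123 with a library left out. Its call was lost without sh2-MELK replicate 2 or 3 or pLKO.1 replicate 1 or 3, and with the GC and length trend removed. The microtubule protein MAP4 had -0.11 ± 0.04 (SE), CDC25C -0.09 ± 0.11 (SE) and PPP1CB 0.49 ± 0.21 (SE), and none of these passed. MAP4 was at -0.17 and passed once the GC and length trend was removed. Without pLKO.1 replicate 2 the edgeR adjusted p of PPP1CB was 0.0234, and with other libraries left out it went up to 0.452.

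Of the genes tied to MELK as regulators, partners or substrates, 4 of 11 tested rose and 2 fell. Of these 11 genes 9 were well-counted, where 68.0% of all genes passed, so the count is no more than the background. MYBL2 (B-MYB), a cell-cycle transcription factor, had counts of 8551, 9259 and 8072 in sh2-MELK, against 5842, 5186 and 5746 in pLKO.1, and rose by 0.66 ± 0.04 (SE, edgeR adjusted p 7.88e-06). FOXM1, a mitotic transcription factor that MELK can phosphorylate, rose by 0.25 ± 0.03 (SE). The translation factor EIF4B fell by 0.64 (SE 0.06) and the phosphatase CDC25B by 0.38 (SE 0.05), or by 0.21 with the GC and length trend removed.

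**Figure D5:**
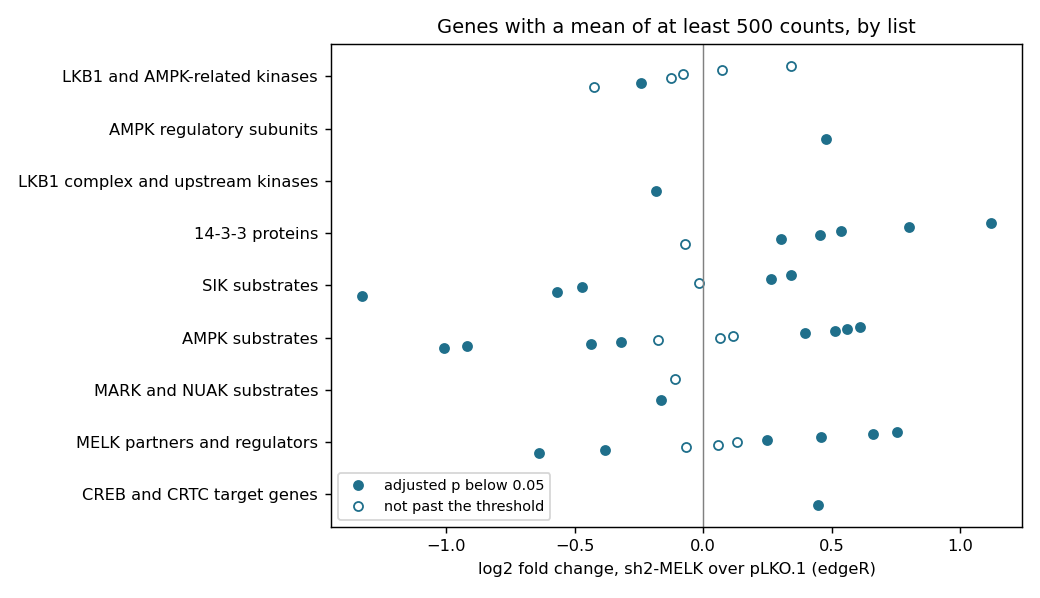
Log2 fold change, sh2-MELK over pLKO.1 (edgeR), of the well-counted genes in each pathway list, with the 6 well-counted kinases in the top row, 1 point per gene (filled where adjusted p was below 0.05). In the 14-3-3 list 5 of 6 genes rose, 4 of 6 with the GC and length trend removed, while AMPK substrates lay on both sides of 0.

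The cells carried markers of the labelled lineage, with ITGA2B (integrin alpha IIb) at 1061 CPM in sh2-MELK and 2024 CPM in pLKO.1. TAL1 was at 1041 CPM in sh2-MELK and 567.8 CPM in pLKO.1. PF4 and PPBP had values no higher than about the added number. GP9 was modelled at 3.19 reads in sh2-MELK and 9.14 in pLKO.1. Summed counts of the 10 megakaryocyte markers were 48036 to 52896 in sh2-MELK and 61476 to 67404 in pLKO.1. ITGA2B and TAL1, the largest parts of that sum, moved in opposite directions. Of these markers 2 of 9 tested rose (FLI1 and TAL1) and 5 fell (ITGA2B, ITGB3, GP1BA, GATA1 and NFE2). For these and the lists below, 8.12% of all genes tested rose and 8.43% fell, and 32.5% and 35.5% of well-counted genes. Well-counted were 6 megakaryocyte, 6 erythroid, 3 myeloid and 1 of the epithelial and stromal markers. The 8 erythroid markers summed to 4355 to 4768 in sh2-MELK and 9405 to 11041 in pLKO.1, with 0 that rose and 5 that fell. The 6 myeloid markers summed to 1863 to 2027 in sh2-MELK and 3994 to 4513 in pLKO.1, with 1 that rose and 2 that fell. The lymphoid markers CD3E and MS4A1 held values that the added number alone can give or nearly so. CD3D had 105, 104 and 107 in sh2-MELK against 16, 9 and 4 in pLKO.1, NKG7 had 26, 144 and 118 against 12, 16 and 25, and CD79A had 24, 6 and 9 against 26, 27 and 35. None of these 3 tested lymphoid markers passed in edgeR, while the model passed NKG7 as higher (29.3 reads in sh2-MELK, 13.84 in pLKO.1) and CD79A as lower (9.25 reads in sh2-MELK, 26.36 in pLKO.1). Of the epithelial and stromal markers 1 of 5 tested rose and 0 fell. The part of these shifts in the kinases' differences was not tested, and a shift in cell state cannot be told apart from a change in each cell.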

How the data were processed

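RNA-seq was measured in 6 MEG-01 libraries, 3 with sh2-MELK and 3 with pLKO.1, grouped by sample title. The authors deposited whole-number counts per gene, named raw per the file headers. The submitters' processing notes name R 4.3.3, DESeq2, HTSeq, STAR, fastp and FastQC without roles, and the build GRCh38, with counting mode, strand setting and annotation not given in the sources used here. Library totals were 18945176 to 21711313, and the submitters call the replicates biological and do not state separate cultures, so p-values describe how far these libraries differ, part of which may be technical.

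Counts as deposited were fitted with edgeR 4.0.16 (robust quasi-likelihood F-test, TMM, filterByExpr with minimum count 10, Benjamini-Hochberg over 28303 genes, threshold 0.05). The added-number model took each count as a negative binomial read count (dispersion 0.00293) plus 0, 1, 2, 10 or 100 with equal chance, with 95% profile intervals and a likelihood-ratio test. It takes 1 dispersion for every gene, so its intervals do not widen for a gene whose libraries vary more. Alternatives were RLE and library-size scaling, no filter, a mean of at least 500 counts, DESeq2 1.42.0, limma-voom (limma 3.58.1), removal of the GC and length trend, a replicate block, and each library left out. The sum of SIK1 and SIK1B was added after seeing the data.

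Exon lengths, GC content and coordinates came from GENCODE v29 (GRCh38) and promoters from RefSeq (GRCh38.p14). The members and gene lists were chosen with earlier results of these data known. All 10 members are named. From each pathway list the 4 tested genes with the highest mean count are named, and the 3 genes most like MELK and STK11. The cell type marker lists are named only in part. The statistical scripts were tested on simulated data.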

Additional observations from a re-analysis of the deposited data

How the results depend on the processing

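MELK kept its direction in all 13 alternatives that could be fitted. Its log2 fold change was -1.98 with no filter, -2.48 in limma-voom and -3.39 in the added-number model, all past the threshold. With each library left out it ran from -3.32 to -1.54, past the threshold only without sh2-MELK replicate 2. MELK, PRKAA1, SIK1 and NUAK2 could not be fitted with a mean of at least 500 counts or with the GC and length trend removed, since their means are lower.

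The number of members called, 1 in edgeR as reported, was 2 with library-size scaling, 3 with no filter, 3 with a mean of at least 500 counts, 4 in DESeq2, 2 in limma-voom, 5 in the added-number model, 4 with the GC and length trend removed, and 1 to 2 with a library left out. It was 2 without sh2-MELK replicate 1 (MARK4 and SIK3), without sh2-MELK replicate 2 (MARK4 and MELK) and without sh2-MELK replicate 3 (MARK4 and MARK3). The number of all genes called was 4683 as reported and 8973 in the added-number model. With the trend removed MARK2 reversed to 0.13 and MARK4 lost its call. For each change listed the cause was not tested, apart from the smaller sets of genes or libraries that some alternatives use.

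Over the well-counted genes, same-numbered libraries did not deviate together from their group means (correlations 0.0998, -0.0124 and -0.0801). These values cannot tell whether same-numbered libraries were prepared together, which the labels do not say. With the replicate block 4182 genes and 1 member were called. For genes with few reads both the added number and the number of reads limit the precision.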
